A study of Mus musculus with 8 samples.

Results

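Chemokines are small secreted proteins that guide leukocytes through tissue by binding G protein-coupled receptors on the target cell. They are named by the spacing of their N-terminal cysteines, so that Ccl genes encode CC ligands, Cxcl genes encode CXC ligands, and Ccr and Cxcr genes encode the receptors of each family. Many are encoded in tandem clusters in which neighbouring genes arose by duplication, and the inflammatory members are induced by nuclear factor κB (NF-κB) and interferons. In the uterus, stromal cells are a source of chemokines, while most of the receptors are expressed on the leukocytes that respond to them.

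The genes described here were all protein-coding genes on chromosomes 1 to 19 of the GENCODE mouse annotation whose symbols start with Ccl, Cxcl, Ccr or Cxcr and a digit. There were 51 such genes among 20807 coding genes, of which 35 encode ligands (23 CC and 12 CXC) and 16 encode receptors (11 CC and 5 CXC). Cxcr3, which is on chromosome X, and Cxcl11, which the annotation lists as a polymorphic pseudogene, were outside this rule.

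Genome-wide occupancy of PBRM1 (BAF180, the bromodomain subunit that defines the PBAF form of the SWI/SNF chromatin remodeler) and of BRG1 (Smarca4, its ATPase, shared with other SWI/SNF forms) was measured in primary uterine stromal cells of wild-type mice, 8 to 12 weeks of age, at day 4 (D4). The labels give the time as day 4 of pregnancy, and the extraction protocol describes pseudopregnant females, with the uterine horns of several animals pooled, so that a library is not 1 animal. The cells were plated for some hours before they were fixed. In the assay, chromatin immunocleavage sequencing (ChIC-Seq), an antibody guides protein A-MNase to its target and the released fragments are sequenced. Each antibody had 3 replicate libraries of 50000 cells, and 1 further list of peaks called on its pooled fragments. PBRM1 libraries held from 8868777 up to 16505239 fragments and BRG1 libraries from 11506964 up to 14595089. Peaks numbered 21912 to 26363 per PBRM1 replicate and 36656 to 40610 per BRG1 replicate, and 55119 and 82669 in the pooled lists. No control library entered the peak calling, and the 2 IgG libraries of the series were not analysed here. The study calls the replicates biological, but neither it nor the labels state which animals or cultures each came from, so p-values measure the spread between these libraries. Promoters of all 10 stromal markers examined (Vim, Pdgfra, Pgr and others) held a peak in both pooled lists, as did those of all 8 epithelial markers. Of 6 endothelial markers 4 (PBRM1) and 5 (BRG1) did, whereas 9 of 12 leukocyte markers, among them Ptprc, Cd3e, Csf1r and Lyz2, held none. The other leukocyte markers were Spi1, with a peak in both pooled lists and 5 replicates, Itgax (both pooled lists) and Adgre1 (pooled BRG1 list). Over all coding genes, 69.3% held a peak in both pooled lists. In all 6 replicates a peak was held by 6 stromal, 2 epithelial, 1 endothelial and 0 leukocyte markers, against 53.5% of all coding genes.

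Promoters of 5 ligand genes and 2 further peaks carried much of what follows, and their sequences are shown for the motifs they hold. Each is 300 bases long and is written in lower case, with capitals marking matches to the NF-κB site, to the AP-1 site TGANTCA or to the interferon-stimulated response element (ISRE, a pair of GAAA separated by any 2 bases), searched on both strands with overlapping matches counted. The promoters run from 250 bases before to 50 after the RefSeq transcription start site (TSS) on the strand of the gene (GRCm38.p6). They lie at chr5:90890995-90891294 (+, Cxcl1), chr5:90903649-90903948 (+, Cxcl2), chr5:92348840-92349139 (−, Cxcl10), chr6:117168285-117168584 (+, Cxcl12) and chr13:56296502-56296801 (−, Cxcl14). The peak windows are centred on pooled BRG1 summits and are given on the plus strand of mm10, at chr11:82032910-82033209 (upstream of Ccl2) and chr5:92353676-92353975 (upstream of Cxcl10).
Cxcl1: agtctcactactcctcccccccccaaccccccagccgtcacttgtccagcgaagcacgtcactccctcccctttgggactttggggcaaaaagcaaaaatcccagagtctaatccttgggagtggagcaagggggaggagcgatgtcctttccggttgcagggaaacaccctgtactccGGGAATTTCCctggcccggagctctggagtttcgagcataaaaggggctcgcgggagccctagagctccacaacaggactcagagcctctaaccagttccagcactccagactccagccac
Cxcl2: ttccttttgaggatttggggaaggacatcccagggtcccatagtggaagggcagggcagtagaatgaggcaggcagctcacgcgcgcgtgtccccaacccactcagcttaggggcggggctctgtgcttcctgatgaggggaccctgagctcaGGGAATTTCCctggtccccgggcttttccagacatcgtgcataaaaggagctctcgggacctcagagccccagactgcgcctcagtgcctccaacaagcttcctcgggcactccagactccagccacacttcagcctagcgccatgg
Cxcl10: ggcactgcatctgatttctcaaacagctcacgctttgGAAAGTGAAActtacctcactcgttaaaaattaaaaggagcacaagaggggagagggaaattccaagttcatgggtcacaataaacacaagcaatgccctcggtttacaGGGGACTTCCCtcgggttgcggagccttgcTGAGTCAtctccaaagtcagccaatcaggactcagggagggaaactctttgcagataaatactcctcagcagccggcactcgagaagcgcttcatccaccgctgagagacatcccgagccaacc
Cxcl12: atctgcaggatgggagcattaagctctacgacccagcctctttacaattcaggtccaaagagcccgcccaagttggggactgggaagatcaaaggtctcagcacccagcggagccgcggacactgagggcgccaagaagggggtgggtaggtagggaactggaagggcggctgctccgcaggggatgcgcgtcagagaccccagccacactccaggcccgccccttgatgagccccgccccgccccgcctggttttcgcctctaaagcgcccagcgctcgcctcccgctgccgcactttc
Cxcl14: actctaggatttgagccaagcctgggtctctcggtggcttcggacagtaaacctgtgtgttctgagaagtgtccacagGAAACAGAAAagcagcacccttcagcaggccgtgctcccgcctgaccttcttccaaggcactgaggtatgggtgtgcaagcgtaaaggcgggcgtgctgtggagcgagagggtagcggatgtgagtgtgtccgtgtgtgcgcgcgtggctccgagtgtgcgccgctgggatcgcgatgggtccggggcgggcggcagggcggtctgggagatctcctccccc
Ccl2 upstream site: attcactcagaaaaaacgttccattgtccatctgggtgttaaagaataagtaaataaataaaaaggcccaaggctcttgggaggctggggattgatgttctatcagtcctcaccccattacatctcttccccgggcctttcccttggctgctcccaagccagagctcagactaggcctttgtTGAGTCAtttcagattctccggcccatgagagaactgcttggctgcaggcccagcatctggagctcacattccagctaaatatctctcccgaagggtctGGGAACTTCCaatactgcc
Cxcl10 upstream site: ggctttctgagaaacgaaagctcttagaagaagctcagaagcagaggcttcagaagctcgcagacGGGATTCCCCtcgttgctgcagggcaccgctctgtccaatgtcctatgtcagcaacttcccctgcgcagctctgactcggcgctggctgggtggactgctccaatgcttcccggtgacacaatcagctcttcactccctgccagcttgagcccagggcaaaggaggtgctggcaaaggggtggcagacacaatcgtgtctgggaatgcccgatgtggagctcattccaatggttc

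To determine which chemokine genes were occupied, peaks within 2 kb of a TSS of any transcript of the gene were taken as promoter peaks. Most chemokine and receptor promoters held no reproducible peak. In single replicates, 11 to 15 of the 51 genes had a PBRM1 promoter peak and 13 to 17 had a BRG1 promoter peak. In the pooled lists, 21 (41.2%) had a PBRM1 peak against 70.2% of all coding genes, and 28 (54.9%) had a BRG1 peak against 73.7%. Both proteins were called at 19 genes (37.3%, all coding genes 69.3%) and neither at 21 (41.2%, all coding genes 25.4%). When a peak in every replicate was required, 9 genes remained for PBRM1 (17.6%, all coding genes 53.8%), 11 for BRG1 (21.6%, all coding genes 62.9%) and 9 for all 6 libraries (17.6%, all coding genes 53.5%). At least 1 of the 8 lists had a promoter peak for 31 genes (60.8%, all coding genes 75.2%).

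The 9 genes with a promoter peak in all 6 replicates were Cxcl1, Cxcl5, Cxcl12, Cxcl14, Cxcl16, Ccl25, Cxcr4, Ccr9 and Ccr10. Cxcl2 and Cxcl10 had a peak in all 3 BRG1 replicates and in PBRM1 replicates 1 and 2. The Cxcl2 peak of BRG1 replicate 1 did not overlap those of BRG1 replicates 2 and 3. At the other end, 20 genes had no promoter peak in any list. These were the ligand genes Ccl5, Ccl6, Ccl8, Ccl9, Ccl19, Ccl20, Ccl21a, Ccl21b, Ccl22, Ccl24, Ccl27b, Cxcl9, Cxcl13 and Cxcl15 and the receptor genes Ccr1l1, Ccr2, Ccr3, Ccr8, Cxcr1 and Cxcr5. No called peak means that none passed the q-value threshold at this depth, and does not show that the protein was absent.

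**Figure D1:**
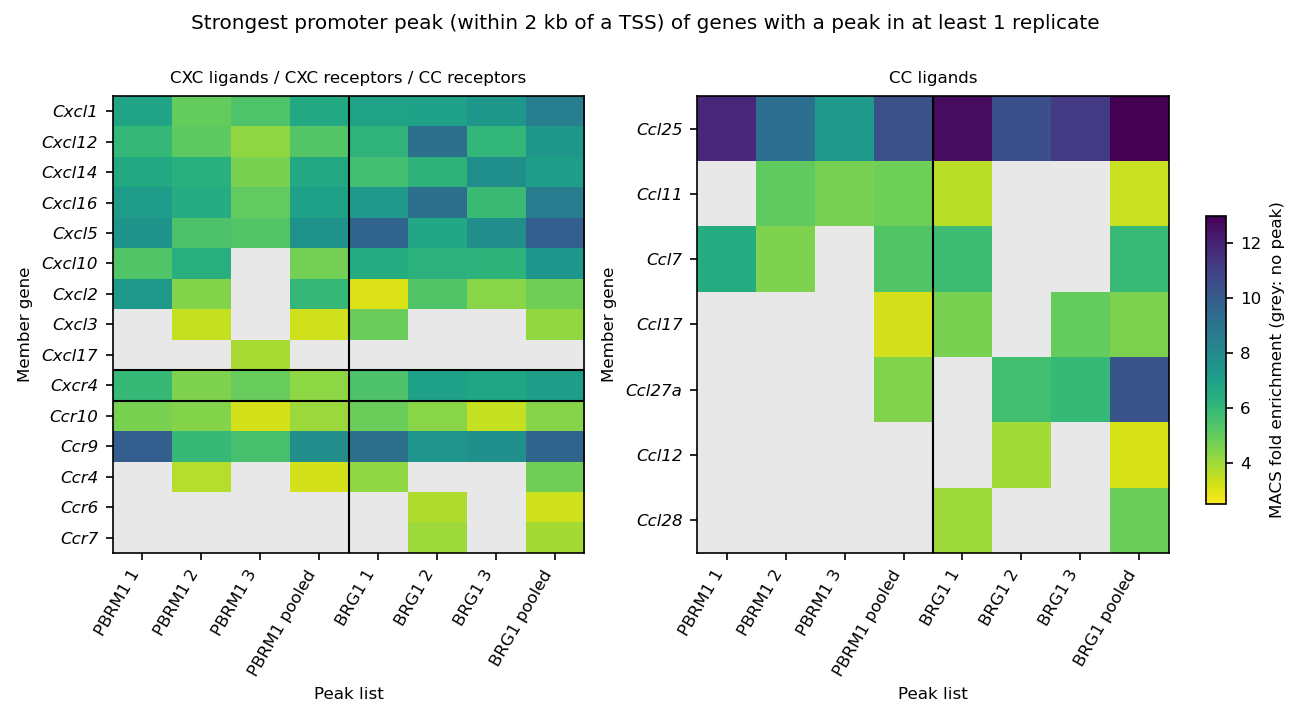
Fold enrichment of the strongest promoter peak of the 22 genes with a promoter peak in at least 1 replicate (rows, by class) in each of the 8 peak lists (columns), as MACS fold enrichment over the local background of that library, with grey where no peak was called. Rows filled in all 8 columns are those of 5 CXC ligands, Ccl25, Cxcr4, Ccr9 and Ccr10.

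A peak call is possible only where fragments map uniquely, so the sequence of each promoter was examined. The share of 50-base words within 2 kb of a TSS that occur once in the genome was 83.4% to 100% for 46 genes. For Ccl19, Ccl21a and Ccl27b it was 0%, and for Ccl21b it was 0.633%. These genes of the repeated chromosome 4 region encode ligands of Ccr7 (Ccl19 and the Ccl21 genes) and of Ccr10 (Ccl27b), and pairs of low mapping quality had been removed before peaks were called. The missing calls at these 4 genes may therefore hold no measurement, although whether longer fragments mapped there was not checked. Without these genes, a choice made after their sequences were seen, 9 of 47 genes (19.1%) had a peak in all 6 replicates. For Ccl27a, whose duplicate is Ccl27b, the share was 49.8%. The other 16 genes with no peak in any list all had promoters of largely unique sequence.

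Calls are given here for each class of ligand. A promoter peak was present for 6 to 8 of the 12 CXC ligand genes in each PBRM1 replicate and for 7 or 8 in each BRG1 replicate, and for 8 in either pooled list. The corresponding numbers for the 23 CC ligand genes were 2 or 3, 3 to 5, and 7 (PBRM1) and 12 (BRG1) in the pooled lists. The pooled shares were 66.7% of CXC ligands for either antibody and 30.4% (PBRM1) and 52.2% (BRG1) of CC ligands, against 70.2% and 73.7% of all coding genes. All 6 replicates had a peak for 5 CXC ligands (41.7%) and for 1 CC ligand, Ccl25 (4.35%), against the 53.5% of all coding genes given above. Receptors and ligands as classes had like shares, with 3 of 16 receptors (18.8%) and 6 of 35 ligands (17.1%) called in all 6 libraries. No test was applied to these counts, since the genes share clusters and were selected as a family.

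**Figure D2:**
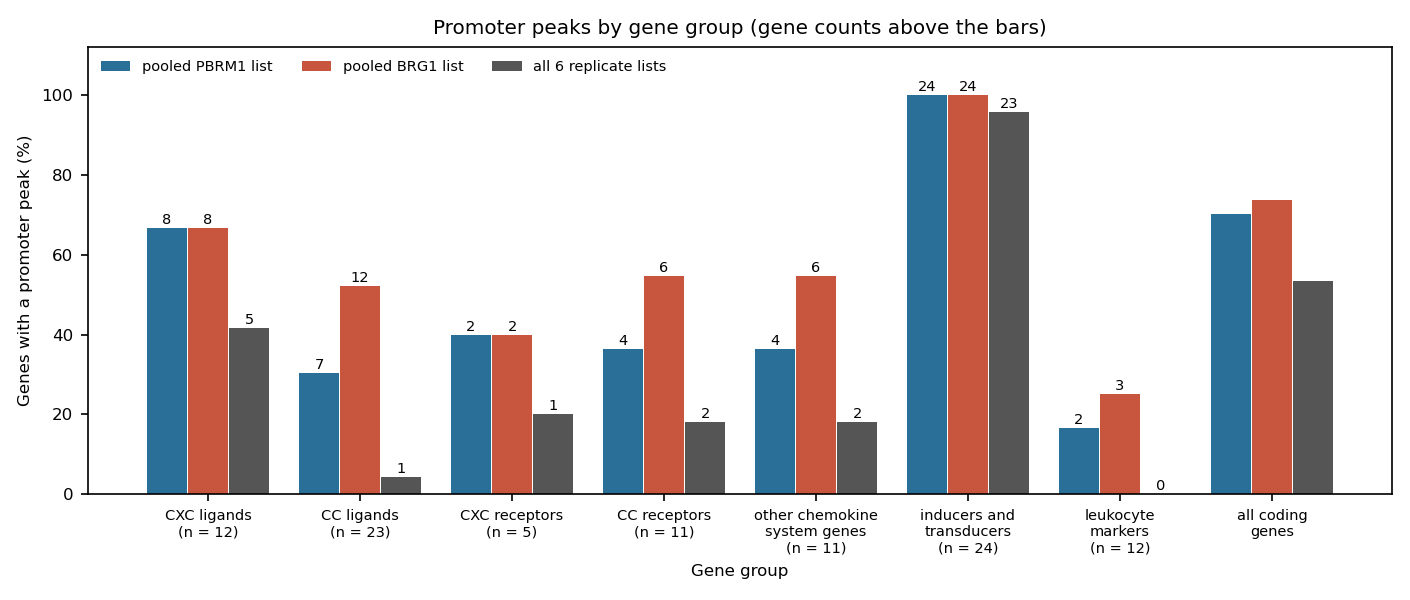
Share of genes (vertical axis, %) with a promoter peak in the pooled PBRM1 list (blue), the pooled BRG1 list (red) and all 6 replicate lists (grey), for the 4 chemokine classes, other chemokine system genes, their inducers and signal transducers, leukocyte markers and all coding genes, with gene counts above the bars. In all 6 replicates a peak was present for 23 of 24 inducers and transducers, 5 of 12 CXC ligands and 1 of 23 CC ligands, against 53.5% of all coding genes.

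Among the constitutively expressed (homeostatic) ligands, 10 of the 11 listed were among the 51 genes and 3 of them (Cxcl12, Cxcl14 and Ccl25) had a promoter peak in all 6 replicates. Among the inflammatory ligands, 2 of 14 (Cxcl1 and Cxcl5) did. The background over all coding genes was 53.5%. In the pooled BRG1 list, 5 of 10 homeostatic (50.0%) and 11 of 14 inflammatory ligand genes (78.6%) had a promoter peak, and the latter share was near the 73.7% of all coding genes. Both lists were written with earlier results of these data known, and 4 of the 10 homeostatic genes are those with repeated promoters.

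Cxcl12, the ligand of Cxcr4 and a product of stromal cells in many tissues, had a promoter fold enrichment of 6.00, 5.11 and 4.23 in the 3 PBRM1 replicates (mean 5.12 ± 0.885, SD, n = 3) and of 6.16, 9.11 and 6.05 in the 3 BRG1 replicates (7.11 ± 1.73). Every BRG1 value was above every PBRM1 value, although the closest of them were 6.05 and 6.00. The share of all coding genes with such a separation was not counted. After centring on the library medians, PBRM1 minus BRG1 was -0.11 in log2 (limma adjusted p = 0.727). Its summits lay 66 to 252 bp downstream of the TSS in all 6 libraries. Fold enrichment is relative to the background of each library, and the median over all coding promoters with a peak was itself lower for PBRM1 (5.75 to 7.57) than for BRG1 (8.11 to 8.26).

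Cxcl14, which encodes a ligand expressed in epithelial and stromal tissue, had values of 6.63, 6.34 and 4.59 for PBRM1 (5.86 ± 1.10) and of 5.63, 6.21 and 7.76 for BRG1 (6.53 ± 1.10), and the groups overlapped. Its 2 TSSs span 246 bp, and its summits were within 57 bp of the nearer one in every library. Those of PBRM1 replicate 1 and BRG1 replicates 1 and 2 were at the downstream TSS, outside the promoter sequence printed above. Those of PBRM1 replicates 2 and 3 and BRG1 replicate 3 were at the upstream TSS. Cxcl16, which encodes the transmembrane ligand of Cxcr6, had values of 7.18, 6.50 and 5.04 for PBRM1 (6.24 ± 1.09) and of 7.37, 9.14 and 5.85 for BRG1 (7.45 ± 1.65), again with overlap. Its promoter is shared with Zmynd15, and the pooled BRG1 summit was at 0 bp from a TSS of that gene.

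The neutrophil-attracting ligands Cxcl1 and Cxcl5, which signal through Cxcr2, were called in all 6 libraries. Cxcl5 had a fold enrichment of 7.58, 5.44 and 5.33 for PBRM1 (6.12 ± 1.27) and of 9.62, 6.73 and 7.79 for BRG1 (8.05 ± 1.46). Cxcl1 had 6.85, 4.97 and 5.40 for PBRM1 (5.74 ± 0.984) and 6.95, 6.98 and 7.45 for BRG1 (7.13 ± 0.281). The PBRM1 and BRG1 values of Cxcl1 did not overlap, although the closest of them were 6.85 and 6.95, while those of Cxcl5 overlapped. For Cxcl1 too, the share of all coding genes with such a separation was not counted, and the centred difference was 0.03. Cxcl2, the adjacent gene, had 7.37 and 4.44 in PBRM1 replicates 1 and 2 with no peak in replicate 3. It had 3.05, 5.37 and 4.38 for BRG1 (4.27 ± 1.16). The summit in BRG1 replicate 1 was 339 bp downstream of the TSS, in a peak with a −log10 q of 1.37. Those of BRG1 replicates 2 and 3 were 136 and 134 bp upstream, so the BRG1 calls were not of 1 shared peak. Cxcl10, an interferon-induced ligand of Cxcr3, had 5.34 and 6.37 in PBRM1 replicates 1 and 2 with no peak in replicate 3, and 6.51, 6.25 and 6.21 for BRG1 (6.32 ± 0.165). PBRM1 replicate 3 had the lowest median fold enrichment over coding promoters (5.75) although it had the most fragments, and its part in the missing calls was not tested.

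Ccl25, the ligand of Ccr9, had the highest promoter enrichment of the 51 genes, with 11.8, 9.15 and 7.34 for PBRM1 (9.43 ± 2.25) and 12.7, 10.4 and 11.2 for BRG1 (11.4 ± 1.13). In the pooled lists it stood above 87.3% (PBRM1) and 86.3% (BRG1) of the coding genes with a promoter peak. A TSS of Ccl25 itself was the nearest TSS of a coding gene in all 8 lists, at 6 to 69 bp from the summits. The transcripts that start there were annotated as processed transcripts or as subject to nonsense-mediated decay. The 8 TSSs of Ccl25 span 24378 bp. With the basic transcripts of the annotation only, Ccl25 still had a promoter peak in all 6 replicates. A TSS of Elavl1, which encodes an RNA-binding protein, also lies within 2 kb.

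Cxcr4, the receptor of Cxcl12, had 5.97, 4.54 and 4.93 for PBRM1 (5.15 ± 0.739) and 5.42, 6.98 and 6.80 for BRG1 (6.40 ± 0.853). The summits of the strongest BRG1 peaks were all 90 bp upstream of the TSS. Those of the strongest PBRM1 peaks were 1163 bp downstream, 1012 bp upstream and 100 bp upstream in replicates 1 to 3. The PBRM1 calls were therefore not of 1 shared peak. Each BRG1 library also had a weaker peak at the downstream site of PBRM1 replicate 1 (3.99, 3.81 and 3.76). Ccr9 had 9.86, 5.95 and 5.56 for PBRM1 (7.12 ± 2.38) and 9.12, 7.51 and 7.73 for BRG1 (8.12 ± 0.875). All its summits were 364 to 492 bp from its nearest own TSS. The pooled summits were 11 bp (PBRM1) and 38 bp (BRG1) from a TSS of Slc6a20a, a proline transporter gene. In every list the strongest peak was at the first of 6 Ccr9 TSSs, and the others lie 88730 to 96101 bp from it. Ccr10 had the lowest values of the 9 genes, with 4.59, 4.45 and 3.18 for PBRM1 (4.07 ± 0.777) and 4.87, 4.35 and 3.41 for BRG1 (4.21 ± 0.738). The summits of its strongest peaks were 1363 to 1625 bp downstream of its TSS in 5 libraries and 878 bp upstream in PBRM1 replicate 2. That replicate also had a peak at the downstream site, with 4.19. A TSS of Cntnap1 lies within 2 kb of the Ccr10 TSS.

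**Figure D3:**
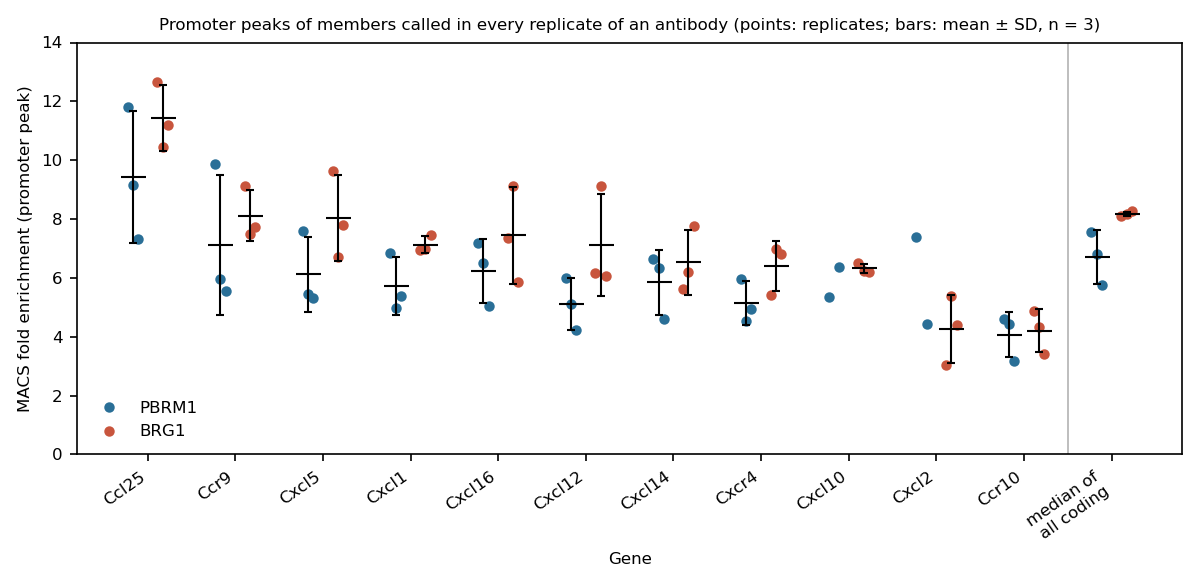
MACS fold enrichment of the promoter peak (vertical axis) in each PBRM1 (blue) and BRG1 (red) replicate for the 11 genes with a peak in every replicate of an antibody, with mean ± SD (n = 3), and on the right the median over all coding promoters in each library. Of the 9 genes called in all 6 libraries, Ccl25 was the only one above the median of the library in each of them.

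A neighbouring coding gene accompanied many of these calls. A TSS of another coding gene lay within 2 kb of a TSS for 5 of the 51 genes, and 4 of these 5 (Cxcl16, Ccr10, Ccl25 and Ccr9) had a peak in all 6 replicates, as did 83.1% of all coding genes with such a neighbour. The fifth was Ccl27a, next to Il11ra1. Of the 46 genes with no such neighbour, 5 (Cxcl1, Cxcl5, Cxcl12, Cxcl14 and Cxcr4) had a peak in all 6 replicates, against 47.4% of all coding genes with none.

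Base composition of the promoters was low in CpG. RefSeq promoter sequences were matched for 37 of the 51 genes. Their median observed/expected CpG ratio was 0.208, against 0.645 for the 15587 coding genes with a sequence, and 32 of the 37 were below 0.6. A peak in all 6 replicates was found for 2 of these 32 (Cxcl1 and Ccr9), against 23.0% of all coding genes below 0.6. It was found for 4 of the 5 at or above 0.6 (Cxcl12, Cxcl14, Cxcr4 and Ccl25, the other being Ccl21b), against 84.0% of all such coding genes. The ratios were 0.639 for Cxcl12 and 0.772 for Cxcl14, and 0.397, 0.399 and 0.528 for Cxcl1, Cxcl2 and Cxcl10. Each ratio was the highest over the RefSeq promoters of the gene. It was not matched to the TSS that held the peak, such as that of Ccr9 next to Slc6a20a.

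Motif matches are marked in the sequences printed above. The promoters of Cxcl1 and Cxcl2 each held the NF-κB match GGGAATTTCC, at 71 to 62 bases and at 97 to 88 bases before the TSS. The Cxcl10 promoter held overlapping NF-κB matches (GGGGACTTCC and GGGACTTCCC), an AP-1 match and an interferon-stimulated response element. The Cxcl12 window held none of these strings, and the Cxcl14 window held only GAAACAGAAA, a match to the response element. Over the 37 matched promoters, an NF-κB match was present in 10 (27.0%), an AP-1 match in 9 (24.3%) and a response element in 3 (8.11%). Among the 15587 coding genes the shares were 7.43%, 8.22% and 4.04%. A match to these letters is not evidence of binding.

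Where promoter peaks of chemokine and receptor genes were called, most were low among coding promoters. Their median fold enrichment in the pooled lists was 4.71 for PBRM1 and 4.82 for BRG1, whereas the median over all coding genes with a promoter peak was 6.94 and 8.76. In single libraries their median percentile by fold enrichment among coding promoters with a peak ranged from 19.1 to 37.4. Summits lay within 500 bp of an own TSS for 17 of 21 PBRM1 and 18 of 28 BRG1 pooled peaks, against 86.6% and 86.3% for all coding genes.

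Some of the pooled calls had no counterpart in a single library. Of the 21 pooled PBRM1 promoter peaks, 8 overlapped a peak of all 3 PBRM1 replicates and 6 overlapped none, among them those of Cxcr2, Ccl2, Ccl4 and Ccl27a, with fold enrichments of 2.77 to 4.48. Of the 28 pooled BRG1 peaks, 12 overlapped all 3 BRG1 replicates and 7 overlapped none, those of Ccl1, Ccl3, Ccl4, Ccl26, Ccl27a, Cxcr6 and Ccr1. The Ccl27a peak had the highest fold enrichment of these (10.3) although it was only 155 bp long, and BRG1 replicates 2 and 3 had peaks of 5.67 and 5.95 elsewhere in its promoter. Peaks in the pooled BRG1 list alone were found at 9 genes and in the pooled PBRM1 list alone at 2, against 4.41% and 0.956% of all coding genes, and each of these 11 genes had a promoter peak in at most 1 replicate.

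Intermediate genes were called in a few libraries. Ccl7, a monocyte-attracting ligand, and Ccl11 (eotaxin), an eosinophil-attracting ligand, had a promoter peak in 5 of 8 lists. Cxcl3, Ccl17, Ccl27a and Ccr4 had one in 4, and Ccl2, Ccl4, Ccl12, Ccl28, Ccr6 and Ccr7 in 2. The Ccl7 values were 6.50 and 4.52 in PBRM1 replicates 1 and 2 and 5.78 in BRG1 replicate 1, and the Ccl11 values were 5.04 and 4.65 in PBRM1 replicates 2 and 3 and 3.59 in BRG1 replicate 1. Single calls were found, among others, at Cxcr2, Cxcr6, Ccr1, Ccl1, Ccl3, Ccl26 and, in PBRM1 replicate 3 alone, Cxcl17 (3.86).

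Ccl2, which encodes the main monocyte-attracting CC ligand, was occupied upstream of its promoter window. The pooled BRG1 peak had a fold enrichment of 8.17 at chr11:82032970-82033601 (mm10), with its summit 2511 bp upstream of the TSS and only its edge within 2 kb. Replicate peaks overlapped it in all 3 BRG1 libraries (7.81, 5.92 and 6.42) and in PBRM1 replicates 1 and 3 (5.66 and 5.15), but none of them reached the 2 kb window. At the TSS itself both pooled lists had a low peak (3.31 for PBRM1 and 3.73 for BRG1), and no replicate list had one. The sequence printed above holds an AP-1 match (TGAGTCA) 32 to 38 bases and an NF-κB match (GGGAACTTCC) 131 to 140 bases from the summit. With the promoter widened to 5 kb, Ccl2 and Cxcl10 joined the genes with a peak in all 6 replicates, which then numbered 11. For Ccl2 these were not all of 1 site, since PBRM1 replicate 2 had no peak that overlapped the upstream one.

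Of the 51 genes, 34 lay in 9 clusters with neighbouring TSSs at most 200 kb apart. A peak in all 6 replicates was found for 3 of these 34 (8.82%) and for 6 of the 17 genes outside clusters (35.3%), against 53.5% of all coding genes. The 34 include Ccl19, Ccl21a and Ccl27b, whose promoters have no unique sequence. In the chromosome 5 cluster of Cxcl5, Cxcl3, Cxcl15, Cxcl1 and Cxcl2, which spans 144.5 kb, every gene but Cxcl15 had a promoter peak in both pooled lists. Cxcl3, a further neutrophil-attracting ligand, was called in 2 single libraries, with 3.42 in PBRM1 replicate 2 and 4.90 in BRG1 replicate 1. Next to Cxcl10, Cxcl9, a second interferon-induced ligand of Cxcr3, had no promoter peak in any list, although the pair spans 20.8 kb. Outside 2 kb of the Cxcl9 TSS, the pooled BRG1 list had a peak of 7.75 at 4633 bp upstream and one of 6.07 downstream. The pooled BRG1 promoter peak of Cxcl10 had 7.48. In the chromosome 11 cluster of monocyte and eosinophil ligands (Ccl2, Ccl7, Ccl11, Ccl12, Ccl8 and Ccl1) 5 of 6 had a pooled BRG1 promoter peak and none had one in all 3 BRG1 replicates. The other chromosome 11 cluster (Ccl5, Ccl9, Ccl6, Ccl3 and Ccl4) had promoter peaks in pooled lists only, at Ccl3 and Ccl4. The chromosome 9 receptor cluster includes Ccr9, Cxcr6, Ccr1 and Ccr2 and spans 450.3 kb. In it, Ccr9 alone had a promoter peak in any replicate, and its strongest peak was next to the Slc6a20a TSS in each library. Pooled BRG1 peaks within 2 kb of the span of that cluster numbered 3.52 per 100 kb, and 8.82 per 100 kb in the Ccl5 to Ccl4 cluster. Over chromosomes 1 to 19 they numbered 3.30 per 100 kb, a value not matched for gene content. The 9 clusters ranged from 0 to 14.8. In the Ccl5 to Ccl4 cluster the value rests on 12 pooled peaks, where the BRG1 replicates had 4, 4 and 3.

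**Figure D4:**
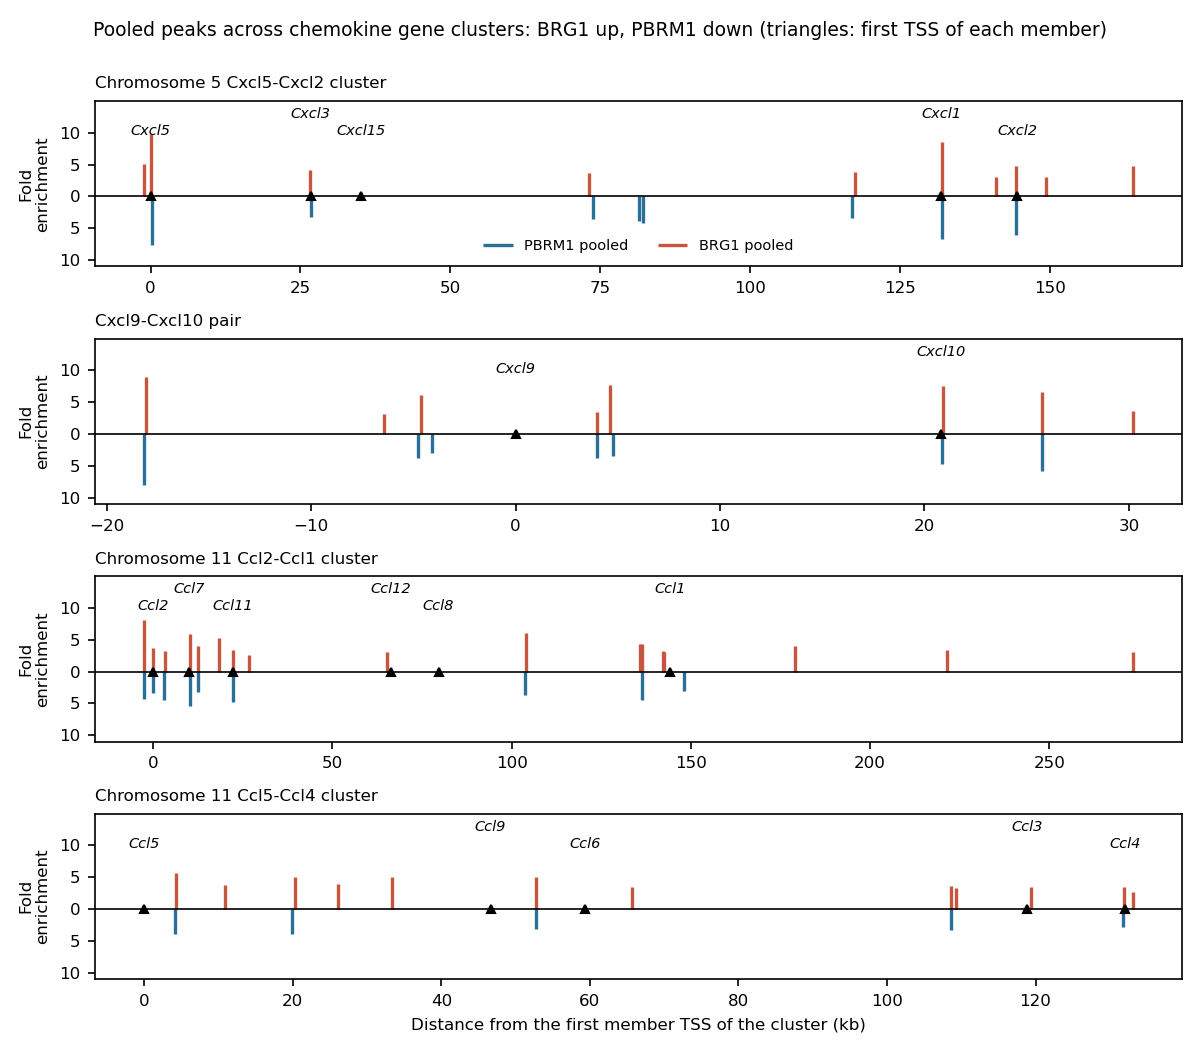
Pooled peaks along 4 chemokine clusters, by distance in kb from the first TSS of the cluster (horizontal axis), with fold enrichment drawn upwards for BRG1 (red) and downwards for PBRM1 (blue) and triangles at the first TSS of each gene. In the top panel the highest bars of both antibodies stand at Cxcl5 and Cxcl1. In the second panel no bar stands within 2 kb of the Cxcl9 TSS, but bars of both antibodies stand farther out on either side.

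Peaks over 2 kb from every annotated TSS with a summit within 50 kb of a TSS of a chemokine or receptor gene were counted as distal. There were 91 in the pooled PBRM1 list and 152 in the pooled BRG1 list. Of the 51 genes, 41 (80.4%) had a distal PBRM1 peak within 50 kb, against 67.0% of all coding genes, and 42 (82.4%) had a distal BRG1 peak, against 74.9%. For peaks found in all 3 replicates of the antibody, the numbers were 7 (13.7%, all coding genes 16.2%) and 16 (31.4%, all coding genes 31.7%), and these shares were close to the background. Only 7 of the 91 PBRM1 peaks and 20 of the 152 BRG1 peaks overlapped a peak in all 3 replicates, and 50 and 73 overlapped none. The median fold enrichment of distal peaks near these genes was 3.82 for PBRM1 and 3.88 for BRG1, against 3.67 and 3.99 for all distal peaks.

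The genes with most distal BRG1 peaks, each peak being given to the nearest of the 51, were Ccr7 with 14, Cxcr5 with 12, Ccl28 and Ccr8 with 8 each, and Ccr10 and Cxcl17 with 7 each. Ccr7, Cxcr5 and Ccr8 are lymphocyte receptor genes, and Cxcr5 and Ccr8 had no promoter peak in any list. The gene given was also the nearest coding gene for 90 of the 152 BRG1 peaks, and for 0 of the 7 given to Ccr10, so nearness assigns no target.

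The highest distal BRG1 peak found in all 3 BRG1 replicates had a fold enrichment of 10.8 at chr13:119596446-119598207, in an intron of Tmem267, 25904 bp upstream of Ccl28, a mucosal ligand of Ccr10. It was also found in all 3 PBRM1 replicates. Next were a peak of 8.81 in an exon of Plekhh3, 12439 bp downstream of Ccr10, and one of 8.38 in an intron of Art3, 20427 bp upstream of Cxcl10. A peak of 7.52 lay 28542 bp upstream of Ccl2 in an intron of the noncoding gene Gm31522, and one of 7.18 lay between genes 26110 bp downstream of Ccr10. The second site upstream of Cxcl10, at 4937 bp in an intron of Art3, had a pooled fold enrichment of 6.67 for BRG1 and 5.81 for PBRM1 and was found in all 6 replicates. The nearest coding TSS to that site was the TSS of Cxcl10, and its printed sequence holds the NF-κB match GGGATTCCCC. In the 300 bases at the summits of the 152 distal BRG1 peaks an NF-κB match was present in 15 (9.87%) and an AP-1 match in 28 (18.4%). The shares over all pooled BRG1 peaks were 6.26% and 11.9%. Those include promoter peaks, and the shares over distal peaks alone were not computed, so no excess near these genes can be read from them.

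**Figure D5:**
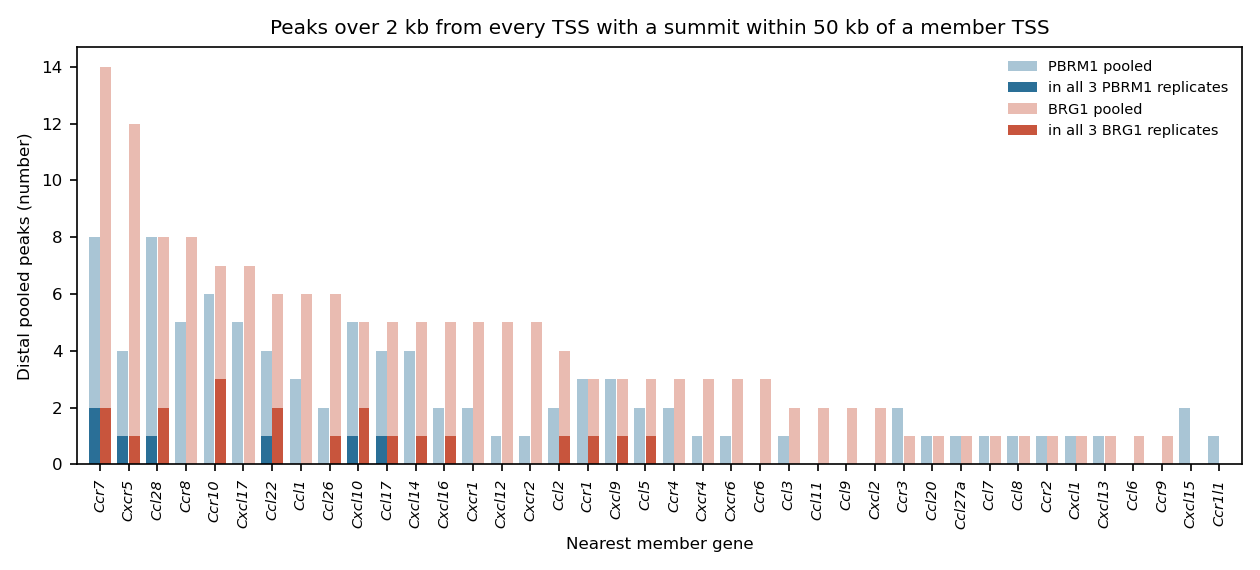
Number of distal pooled peaks (vertical axis) given to each nearest chemokine or receptor gene (horizontal axis), for PBRM1 (blue) and BRG1 (red), with the part found in all 3 replicates of the antibody in full colour. Ccr7 has the most with 14 BRG1 peaks, of which 2 were found in all 3 BRG1 replicates.

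To compare the proteins at promoters, log2 fold enrichment was centred on the median of each library and tested with limma over the 11134 coding genes with a promoter peak in all 6 replicates. None of the 9 chemokine and receptor genes in the fit differed between PBRM1 and BRG1 (limma, Benjamini-Hochberg), and none had an unadjusted p under 0.05. Of all genes, 2.34% were higher for PBRM1 and 1.91% were higher for BRG1, but none was when BRG1 replicate 3 was left out (1805 genes then had an unadjusted p under 0.05). The largest difference was at Ccr10, with PBRM1 minus BRG1 of 0.30 (SE 0.15, 95% interval -0.02 to 0.62, limma adjusted p = 0.250). This value was 0.64 with the peak nearest to a TSS, 0.16 with quantile normalization and 0.15 without BRG1 replicate 3, and PBRM1 replicate 2 entered it with the upstream peak described above. That of Cxcl14 was 0.19 (interval -0.12 to 0.50) and that of Cxcl12 was -0.11 (interval -0.44 to 0.23). The intervals of all 9 genes included 0 and reached at most 0.62 from it, and their median difference was 0.05 against 0.03 over all genes tested. Without centring all 9 differences were below 0, from -0.46 to -0.05, where the median over all genes was -0.32.

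Other genes of the chemokine system, such as atypical receptors, were also read. Of 11 such genes, 4 (36.4%) had a pooled PBRM1 and 6 (54.5%) a pooled BRG1 promoter peak, against 70.2% and 73.7% of all coding genes. Cx3cl1, which encodes the membrane-bound chemokine fractalkine, had 6.61, 4.05 and 4.04 for PBRM1 and 8.35, 8.50 and 6.84 for BRG1. Ccrl2, which encodes a non-signalling receptor, was also called in all 6 replicates. Ackr3, which encodes a scavenger receptor of Cxcl12, was called in all 3 BRG1 replicates (5.30, 5.83 and 6.35) and in no PBRM1 replicate, with 3.20 in the pooled PBRM1 list. Ackr2 had a peak in both pooled lists and in BRG1 replicates 1 and 3. Ackr4 and Cx3cr1 had one in the pooled BRG1 list and in 1 BRG1 replicate each, and Ackr1, Xcl1, Xcr1, Pf4 and Ppbp had no promoter peak in any list. All 24 inducers and signal transducers examined, which included Nfkb1, Rela, Irf1, Myd88 and Ifngr1, had a promoter peak in both pooled lists. Of them 23 (all but Irf7) had one in all 6 replicates. The shares of all coding genes were 69.3% and 53.5%. No test compared this chosen list with the chemokine genes.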

How the data were processed

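The authors trimmed reads with cutadapt, aligned pairs to GRCm38/mm10 with Bowtie2, removed pairs of low mapping quality and duplicates, and called peaks with MACS 2.2.7.1 (q < 0.05, no control) for each replicate and on the pooled fragments of each antibody. The deposited peak lists give pileup (signal), fold enrichment (ratio over the local background of the same library), and −log10 p-values and q-values. Fold enrichment was used here as deposited, with the q-values as an alternative threshold. TSSs were those of all GENCODE M21 transcripts. Sequences were RefSeq GRCm38.p6, and coordinates are mm10. A word search over the genome gave promoter uniqueness. Genes called in every replicate of an antibody are given by library, the others by number of lists, and distal peaks by number and by fold enrichment. limma 3.58.1 (R 4.3.3, Python 3.11.15) compared the antibodies, with Benjamini-Hochberg adjustment over all genes and a threshold of 0.05. The script was tested on simulated data. Alternatives were other promoter and distal distances, a stricter q-value, other centring and leaving out libraries. Depth is given as fragments per library, and p-values measure only the spread between libraries. The genes and lists were chosen with earlier results of these data known. The IgG libraries were not analysed here, and values of some single genes are not reported here.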

Additional observations from a re-analysis of the deposited data

How the results depend on the processing

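Counts of genes with a promoter peak stayed within 1.5 times of those reported for promoter distances of 500, 1000 and 5000 bp, for basic transcripts only and for a −log10 q of at least 5. Of the genes called in all 6 libraries, Cxcr4 and Ccr10 were lost at 500 bp, Ccr10 at 1000 bp, and Cxcr4, Cxcl1 and Cxcl12 at the stricter q. Leaving out each replicate in turn gave 9 to 12 genes for all PBRM1 replicates, 11 to 12 for all BRG1 replicates, 9 to 11 for all libraries, 8 to 9 ligand genes and 3 receptor genes.

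Distal counts depended on the window. The number of distal PBRM1 peaks was 40 within 20 kb, 147 within 100 kb, 50 at a −log10 q of at least 5 and 59 at over 5000 bp from every TSS, and the number of BRG1 peaks was 78, 234 and 84 under the first 3 of these. Peaks found in all 3 replicates numbered 2, 12 and 1 for PBRM1 (20 kb, 100 kb, −log10 q) and 3 with an overlap of 50% of the pooled peak. For BRG1 they numbered 7 within 20 kb, 12 at the stricter q, 13 at over 5000 bp and 6 with the larger overlap. Leaving out 1 replicate gave 10 to 13 for PBRM1 (11 without replicate 2 and 13 without replicate 3) and 24 to 29 for BRG1.

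The number of genes higher for PBRM1 or BRG1 was 148 (PBRM1) with quantile normalization, 3 and 2274 without centring, 40 and 16 with the peak nearest to a TSS, and 0 to 228 and 0 to 214 when a replicate was left out, with 171 and 116 without PBRM1 replicate 1, 41 and 32 without PBRM1 replicate 2, 25 and 32 without BRG1 replicate 1, 16 and 20 without BRG1 replicate 2 and 0 of each without BRG1 replicate 3. Same-numbered libraries did not deviate together (correlations -0.0188, -0.0044 and 0.00479). These correlations cannot show whether same-numbered libraries came from the same cells, which is not stated. With the replicate block the counts were 247 and 209, and no chemokine gene was called in any of the 13 fits. Differences of uncalled genes changed sign without centring: Ccr10 -0.0508, Cxcl14 -0.16, Ccr9 -0.23, Cxcl16 -0.25, Ccl25 -0.30, Cxcr4 -0.31 and Cxcl1 -0.33, and with quantile normalization Cxcr4 -0.0001. Leaving out 1 replicate gave Ccr10 0.15 to 0.42, Cxcl14 0.0937 to 0.31, Ccr9 -0.0402 to 0.25, Cxcl16 -0.0641 to 0.27, Ccl25 -0.0261 to 0.13, Cxcr4 -0.0720 to 0.15, Cxcl1 -0.0566 to 0.15, Cxcl5 -0.17 to 0.10 and Cxcl12 -0.22 to 0.0834. The cause of these changes was not tested. At the depth of single libraries, 6 of 21 (PBRM1) and 7 of 28 (BRG1) pooled promoter peaks had no overlapping call.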
